A study of Rattus norvegicus with 36 samples.

Results

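Keratins are the intermediate filament proteins of epithelial cells, and their messages were read here in the lungs of rats given crystalline silica. The keratin genes were taken as every probe, other than controls, whose gene name on the array was Krt followed by a number and at most 1 letter. That rule found 58 probes for 49 gene names, of 36146 probes with a gene name and 25597 gene names on the array. Of the 49 keratins, 45 had a probe bright enough to be tested among 23721 genes, and Krt16, Krt26, Krt32, and Krt42 had none. No probe carried the names Krt6a, Krt6b, Krt74, or Krt87.

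The rats were female Sprague Dawley animals, 13 weeks old at the start, of 1 outbred strain with no genetic change. Exposed rats received 10 mg of DQ-12, a quartz dust used as a reference crystalline silica, in saline (NaCl) through the trachea, and control rats received the vehicle alone by the same route. The accessory lobe of the lung was taken 1, 30, or 180 days later (D1, D30, and D180) from 6 exposed and 6 vehicle rats per time, with 1 single-color Agilent array for the lobe RNA of each animal, 36 arrays in all. The lobe is a mixture of cells in bulk, so a lower keratin signal can mean fewer epithelial or mesothelial cells or less keratin RNA in each cell, and these cannot be told apart here.

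Keratin filaments are built from pairs of a type I (acidic) and a type II (basic) keratin, and each kind of epithelium uses its own pairs. Single-layered epithelia, including the alveolar and airway lining and the mesothelium, are known for the simple keratins Krt8 and Krt7 (type II) with Krt18 and Krt19 (type I). Basal cells of the airway carry Krt5 with Krt14, Krt15, and Krt17, while the suprabasal, inner root sheath, and hair keratins belong mainly to skin, oral lining, and hair follicles. In the GRCr8 assembly of the RefSeq gene table, 27 of the 49 keratins lay on chromosome 10, the type I genes with Krt222 among them, and 22 lay on chromosome 7, the type II genes with Krt18 at the end beside Krt8.

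The readout of each keratin rests on 60-base probes, and those below gave differences reported further on. The main values of Krt7 and Krt18 come instead from their brightest probes, which are not shown. Each probe shown has at least 1 reading frame without a stop codon, and no exon annotation was used here to place it. The capitals mark the longest run of bases that the probe shares with a probe of any other keratin gene on the array.

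Krt7, second probe: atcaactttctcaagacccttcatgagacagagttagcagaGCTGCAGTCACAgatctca
Krt7, further probe: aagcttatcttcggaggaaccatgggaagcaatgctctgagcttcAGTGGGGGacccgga
Krt19: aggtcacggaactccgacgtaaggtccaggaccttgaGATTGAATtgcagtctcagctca
Krt8: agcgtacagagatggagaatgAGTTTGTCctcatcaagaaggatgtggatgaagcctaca
Krt18, second probe: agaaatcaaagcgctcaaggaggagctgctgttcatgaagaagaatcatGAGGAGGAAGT
Krt75: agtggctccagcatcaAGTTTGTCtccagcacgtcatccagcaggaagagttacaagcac
Krt33a, brighter probe: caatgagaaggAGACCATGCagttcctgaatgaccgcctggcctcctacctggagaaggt

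In the rn4 build named in the array files, the Krt19 probe lay on the minus strand at chr10:89081437-89081496, the Krt8 probe at chr7:140716967-140717949 on the minus strand across an intron, the Krt75 probe at chr7:140320685-140320744 on the minus strand, and the Krt33a probe at chr10:88945565-88945624 on the minus strand. The files gave no position for the other Krt7 probes shown. The second Krt18 probe was placed at chr2:80043817-80043876 on the plus strand, away from the Krt18 gene of the RefSeq table, so a related copy may share its signal. The brighter Krt33a probe is listed for transcripts of 3 hair keratins (Krt33a, Krt33b, and Krt31), and its signal cannot be given to 1 of them. The longest run shared with another keratin's probe ranged in these 7 probes from 8 to 12 bases. The brightest probes of Krt7 and Krt18 hold the AATAAA polyadenylation signal near the end of the message and are not shown.

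Detection separated the keratin classes. A keratin was counted as detected when at least 1 of its probes was marked well above background by the image software. On all 36 arrays this held for 16 of 49 keratins (32.7%), compared with 54.9% of all 25597 gene names. Among the 6 simple epithelial keratins, 5 were detected on every array (Krt7, Krt8, Krt18, Krt19, and Krt23), and the exception was Krt20, a keratin of the gut lining, detected on 10 arrays. Of the 4 basal keratins, Krt15 was detected on 36 arrays, Krt5 and Krt14 on 35 each, and Krt17 on 8. Of the 13 suprabasal and other epithelial keratins, 7 were detected on every array (Krt4, Krt10, Krt76, Krt77, Krt78, Krt79, and Krt80). Krt77 rests on 1 of its 2 probes. Its other probe was well above background on 0, 0, 1, 1, 2, and 0 arrays of the groups in order of time, vehicle first. Among the 8 inner root sheath and companion layer keratins none was detected on all arrays, although Krt71 and Krt75 missed 1 array each and Krt25 missed 2. Only 3 of 15 hair keratins were detected on every array, Krt81, Krt86, and the shared Krt33a probe. The stress keratin Krt16, which is induced in wounded skin, was detected on no array, as were Krt26, Krt32, Krt42, Krt84, and Krt85. Levels of different probes are not comparable on this array, so no keratin is ranked against another by its signal.

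**Figure D1:**
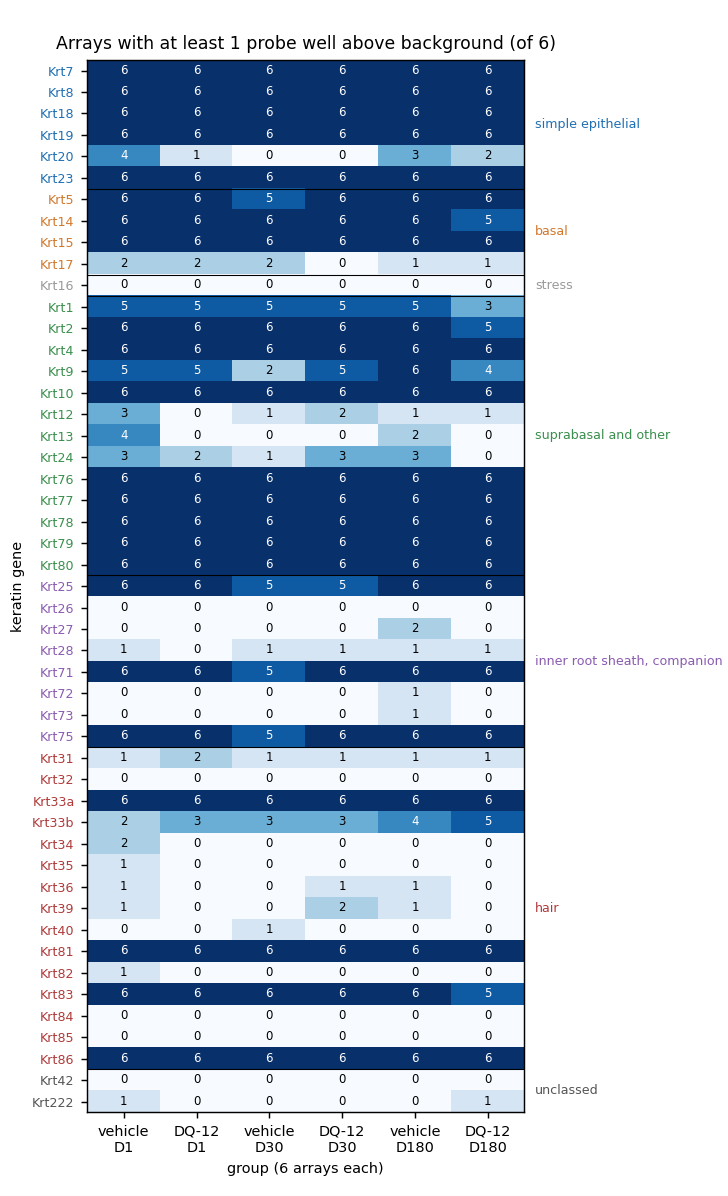
Number of arrays (of 6 in each group, columns) on which each of the 49 keratins (rows, grouped by class) had at least 1 probe well above background. The simple keratins other than Krt20 fill their rows with 6, while the stress keratin and most hair keratins stand at or near 0.

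Few keratins were called different between DQ-12 and vehicle. They were the simple keratins Krt7 and Krt19 and the hair keratins Krt33a and Krt82, all lower, and the companion layer keratin Krt75, which was higher. Differences are on the log2 scale of the quantile-normalized intensity, DQ-12 minus vehicle, and a gene was called at an adjusted p under 0.05 in limma (Benjamini-Hochberg over all 23721 genes). At D1, 1 of 45 keratins was called (2.22%, against 16.5% of all genes). At D30, 3 were called (6.67%, against 4.06% of all genes), and at D180, 4 were called (8.89%, against 17.1% of all genes). By direction, at D1 1 was lower (8.76% of all genes) and 0 were higher (7.69% of all genes), at D30 3 were lower (1.27% of all genes) and 0 higher (2.78% of all genes), and at D180 3 were lower (9.11% of all genes) and 1 higher (7.94% of all genes). None of the 43 keratins measured on all 12 arrays at D1 had groups that did not overlap, compared with 6.04% of all genes lower and 5.28% higher. A fold change of at least 2 is the size the study asks of a differentially expressed gene (DEG). It was fitted for 1 called keratin at D1 (3.12% of all genes) and for 0 at D30 and D180 (1.06% and 3.67% of all genes). The 1 at D1 was Krt82, well above background on 1 vehicle and 0 DQ-12 arrays there, so its fold was not measured. The median difference over the 45 keratins was -0.08 at D1, -0.03 at D30, and -0.13 at D180, beside -0.01, -0.02, and -0.03 over all genes. At an unadjusted p under 0.05, 7, 10, and 9 keratins would pass at D1, D30, and D180.

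**Figure D2:**
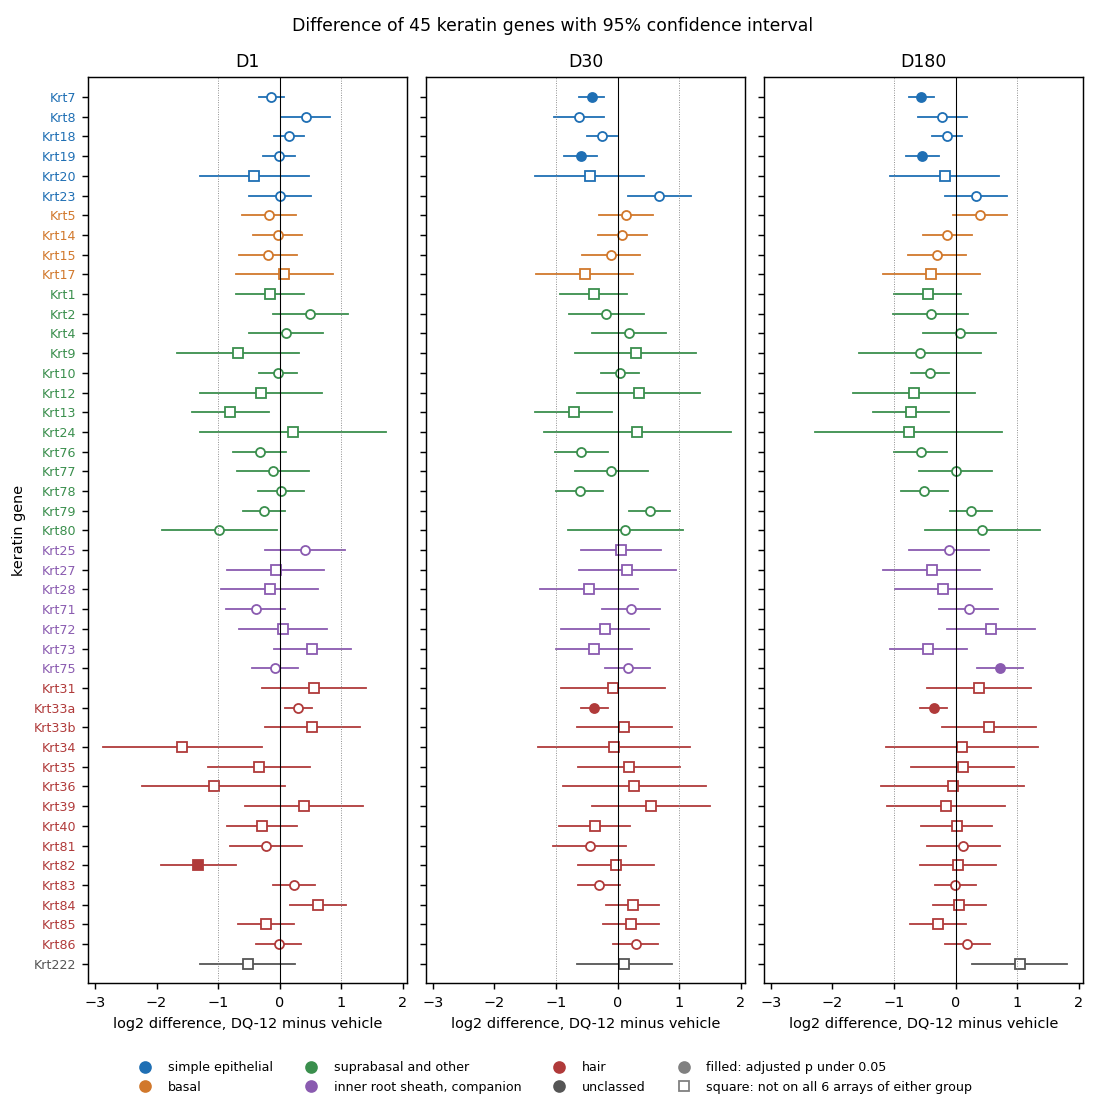
Log2 difference (DQ-12 minus vehicle, horizontal axis) of the 45 tested keratins at each time, with 95% confidence intervals. Filled points passed the adjusted p threshold, and squares mark keratins that were not well above background on all 6 arrays of either group. The filled points are Krt82 at D1, Krt7, Krt19, and Krt33a at D30 and D180, and Krt75 at D180.

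Krt7, the type II keratin of ducts, airways, and mesothelium, was lower in DQ-12 lungs at D30 and D180. At D30, vehicle rats ranged from 15.05 to 15.56 (median 15.17) and DQ-12 rats from 14.70 to 15.13 (median 14.73). Of the 6 DQ-12 rats at D30, 5 lay below all vehicle rats, and 1 stood apart at 15.13. At D180, vehicle rats ranged from 14.75 to 15.20 (median 15.09) and DQ-12 rats from 14.32 to 14.69 (median 14.44). Every exposed rat at D180 was lower than every vehicle rat. The difference was -0.42 at D30 (SE 0.10, adjusted p 0.00804), and Krt7 fell by 25.4%. It was -0.56 at D180 (SE 0.10, adjusted p 7.8e-05), and Krt7 fell by 32.0%. At D1 the medians were 15.02 in vehicle and 14.83 in DQ-12 rats, the groups overlapped, and the difference was -0.14 (95% confidence interval -0.34 to 0.06, adjusted p 0.37). The two-sided exact permutation test over the arrays of a time gave p = 0.00866 at D30 and p = 0.00216 at D180, the latter being the smallest it can give.

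The other probes of Krt7 gave the same direction. In a fit of every probe, the second probe shown above had a difference of -0.67 at D30 (adjusted p 0.00536) and -0.54 at D180 (adjusted p 0.00915). The further probe had -0.38 at D30 (adjusted p 0.0367) and -0.52 at D180 (adjusted p 0.000461). All 3 probes were well above background on every array. At D1 the second and further probes differed by 0.23 and -0.01, and neither was called.

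Krt19, the type I partner without a tail domain, followed Krt7. At D30, vehicle rats ranged from 12.81 to 13.57 (median 13.04) and DQ-12 rats from 12.02 to 12.91 (median 12.57), and 5 of 6 DQ-12 rats lay below all vehicle rats. At D180, vehicle rats ranged from 12.92 to 13.60 (median 13.12) and DQ-12 rats from 12.29 to 12.90 (median 12.71). The groups at D180 did not overlap, although the nearest rats of each lay close together. Krt19 fell by 34.1% at D30 (difference -0.60, SE 0.13, adjusted p 0.00423). At D180 it fell by 31.1% (difference -0.54, SE 0.13, adjusted p 0.00288). At D1 the medians were 13.23 in vehicle and 13.22 in DQ-12 rats, and the difference was -0.01 (95% confidence interval -0.28 to 0.25). Krt7 and Krt19 were the 2 keratins of 45 that lay lower without overlap at D180 (3.51% of all genes did). At D30 the sole one was Krt13, which no array of either group measured well above background (0.561% of all genes were lower without overlap).

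Scan date and slide, as the array files record them, bear on these calls. With scan date as a fixed block, the D180 differences of Krt7 and Krt19 were -0.66 (adjusted p 6.66e-05) and -0.58 (adjusted p 0.0043), but those at D30 were -0.29 (adjusted p 0.14) and -0.41 (adjusted p 0.125). With slide as a fixed block, Krt7 was called at D30 (-0.35, adjusted p 0.0442) and not at D180 (-0.50, adjusted p 0.203), and Krt19 had -0.43 at D30 (adjusted p 0.106) and -0.11 at D180 (adjusted p 0.964). At D180 just 1 slide held arrays of both groups. The 2 scan dates at D30 held 1 and 5 DQ-12 arrays against 4 and 2 vehicle arrays. Within them Krt7 differed by -0.16 and -0.37 and Krt19 by -0.33 and -0.45. The 2 scan dates at D180 that held both groups had 3 arrays of each group on the first and 1 of each on the second. There Krt7 differed by -0.59 and -0.88 and Krt19 by -0.46 and -0.93. Fitted at D30 alone, without the spread of the other times, neither was called (adjusted p 0.0838 and 0.0844). With slide or scan date as a random block, both were called at both times, Krt7 with adjusted p of 0.00522 and 0.0407 at D30 and 7.95e-05 and 1.45e-05 at D180, and Krt19 with 0.00989 and 0.0241 at D30 and 0.00658 and 0.000877 at D180.

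Krt8 and Krt18, the first keratin pair of embryonic and simple epithelia, were not called at any time. At D1, Krt8 ranged from 10.14 to 11.05 in vehicle rats (median 10.74) and from 10.85 to 11.37 in DQ-12 rats (median 11.06), with 3 DQ-12 rats above all vehicle rats. At D30, it ranged from 9.93 to 10.94 in vehicle rats (median 10.75) and from 9.53 to 10.75 in DQ-12 rats (median 9.87), with 3 DQ-12 rats below all vehicle rats. At D180 the medians were 10.21 and 9.90, and the groups overlapped widely. The differences of Krt8 were 0.42 at D1 (SE 0.20, adjusted p 0.151), -0.63 at D30 (SE 0.20, adjusted p 0.0665), and -0.21 at D180 (SE 0.20, adjusted p 0.541). Krt8 at D30 passed the threshold when vehicle D30 replicate 3, vehicle D30 replicate 4, or DQ-12 D30 replicate 5 was left out (adjusted p 0.018, 0.0352, and 0.00749). With scan date or slide as a fixed block the D30 difference shrank to -0.20 and -0.21 (adjusted p 0.715 and 0.629). As random blocks they gave -0.38 and -0.39 (adjusted p 0.354 and 0.218). Within the 2 scan dates at D30, Krt8 differed by -0.07 (1 DQ-12 array) and -0.28 (5 DQ-12 arrays).

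Krt18 was steadier. At D30 it ranged from 14.42 to 14.70 in vehicle rats (median 14.54) and from 14.16 to 14.46 in DQ-12 rats (median 14.28), and 5 of 6 DQ-12 rats lay below all vehicle rats. The difference at D30 was -0.26 (SE 0.12, adjusted p 0.275). At D1 the medians were 14.65 in vehicle and 14.80 in DQ-12 rats, and at D180 they were 14.12 and 13.88, with overlap at both times. The second Krt18 probe, which maps away from the gene, was called at D30 in the fit of every probe (-0.42, adjusted p 0.0315) and had 0.22 at D1 and -0.14 at D180.

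Krt23, a type I keratin of simple epithelia, moved the other way at D30. Its DQ-12 rats ranged from 7.39 to 7.82 (median 7.61) and its vehicle rats from 6.52 to 7.35 (median 6.98). All 6 DQ-12 rats were above all vehicle rats, which 1.83% of all genes showed at D30, but the difference of 0.68 was not called (SE 0.25, adjusted p 0.134). At D1 and D180 its groups overlapped, with differences of 0.01 and 0.33. Krt20 stayed dim, with differences of -0.42, -0.46, and -0.18 and no call. Fitted at D30 alone, Krt23 and Krt13 were the 2 called keratins. Over the 6 simple keratins, 0, 2, and 2 were called lower at D1, D30, and D180, beside 8.76%, 1.27%, and 9.11% of all genes. None of them was called higher at any time, beside 7.69%, 2.78%, and 7.94% of all genes. The median difference of the 6 simple keratins was -0.00 at D1, -0.44 at D30, and -0.19 at D180.

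**Figure D3:**
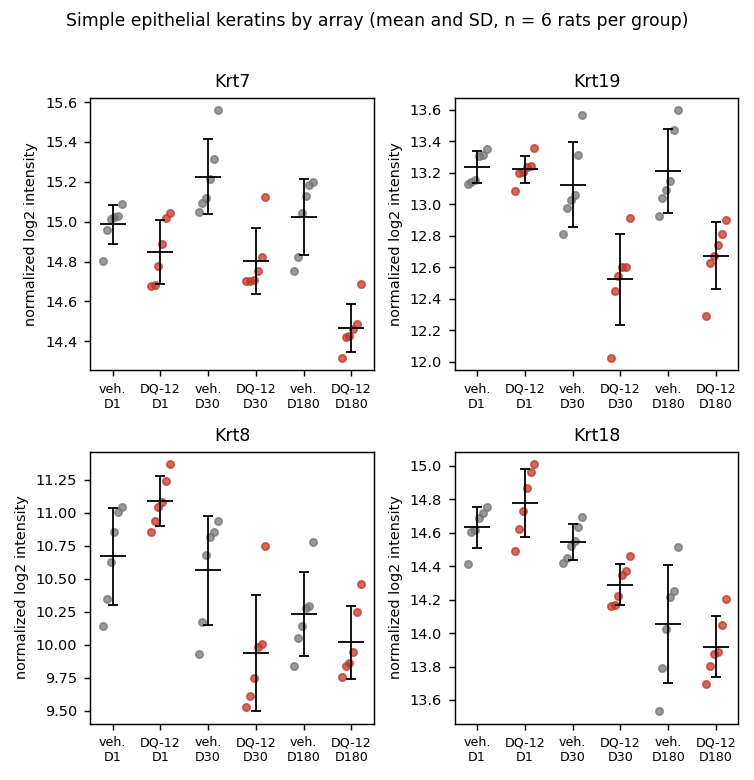
Normalized log2 intensity (vertical axis) of Krt7, Krt19, Krt8, and Krt18 on each array, by group, with the mean and SD of 6 rats per group. The vertical axes do not start at 0 and differ between panels. Exposed rats (red) lie below vehicle rats (grey) without overlap at D180 for Krt7 and Krt19, while Krt8 and Krt18 overlap at every time.

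The stretch of 250 bases before the annotated start is shown for Krt8 and Krt18, which are neighbours in the genome and partners in the filament, and for Krt75, which is described below. The sequences are from RefSeq (GRCr8), at chr7:135010340-135010589 on the minus strand for Krt8, chr7:135035918-135036167 on the plus strand for Krt18, and chr7:134576075-134576324 on the minus strand for Krt75. Capitals mark every match on either strand to TATAAA (the TATA box), GGGCGG (the GC box), CCAAT (the CCAAT box), or TGANTCA (an AP-1 site).

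Krt8 upstream: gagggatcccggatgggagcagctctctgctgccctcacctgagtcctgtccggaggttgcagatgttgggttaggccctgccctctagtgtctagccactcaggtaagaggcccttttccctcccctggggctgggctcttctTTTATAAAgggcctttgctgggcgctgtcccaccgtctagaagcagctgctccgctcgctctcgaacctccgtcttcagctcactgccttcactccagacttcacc
Krt18 upstream: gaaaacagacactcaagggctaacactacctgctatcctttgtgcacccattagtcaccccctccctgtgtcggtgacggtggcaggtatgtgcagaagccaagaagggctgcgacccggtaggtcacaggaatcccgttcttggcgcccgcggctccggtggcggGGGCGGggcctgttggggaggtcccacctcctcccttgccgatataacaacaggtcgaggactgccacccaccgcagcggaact
Krt75 upstream: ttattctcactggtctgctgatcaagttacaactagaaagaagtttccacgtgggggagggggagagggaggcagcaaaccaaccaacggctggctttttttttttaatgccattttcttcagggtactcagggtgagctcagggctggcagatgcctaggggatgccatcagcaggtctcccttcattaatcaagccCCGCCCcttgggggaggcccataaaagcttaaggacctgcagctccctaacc

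Krt8 held overlapping TATAAA matches on the 2 strands, whereas Krt18 and Krt75 each held 1 GGGCGG match. The table held 37 promoters of 35 of the 49 keratins, with 3 of them for Krt79. TATAAA was found in 22 of these 37 promoters (59.5%), compared with 12.9% of all 33469 promoters of this length. GGGCGG was found in 4 of 37 (10.8%, all promoters 30.5%), CCAAT in 18 of 37 (48.6%, all promoters 34%), and TGANTCA in 1 of 37 (2.7%, all promoters 6.34%). Krt7 and Krt19 had no entry.

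None of the 4 basal keratins was called at any time, beside 16.5%, 4.06%, and 17.1% of all genes at D1, D30, and D180. Krt5, the type II keratin of basal cells, ranged at D180 from 4.06 to 5.52 in vehicle rats (median 5.43) and from 5.07 to 5.98 in DQ-12 rats (median 5.57). Although 3 of 6 exposed rats were above all vehicle rats, the groups overlapped. The difference was 0.39 (SE 0.22, adjusted p 0.24), after -0.18 at D1 and 0.14 at D30. Krt14, its type I partner, ranged at D180 from 5.45 to 6.43 in vehicle rats (median 5.90) and from 5.48 to 6.28 in DQ-12 rats (median 5.64). Its differences were -0.03, 0.07, and -0.13 at D1, D30, and D180, with a 95% confidence interval of -0.53 to 0.26 at D180. Krt15, the basal keratin detected on every array, ranged at D180 from 8.60 to 9.57 in vehicle rats (median 9.17) and from 8.49 to 9.01 in DQ-12 rats (median 8.84). Its differences were -0.19, -0.10, and -0.30 (95% confidence interval at D180 -0.77 to 0.17). Krt17, which is also induced in injured skin, was well above background on 2, 2, 2, 0, 1, and 1 arrays of the 6 groups in order of time, vehicle first. Its group medians ran from 2.51 to 3.87, and its differences were 0.07, -0.54, and -0.40. The lowest adjusted p of any basal keratin was 0.24, and the 3 Krt5 probes had no call in the fit of every probe.

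The 13 suprabasal and other epithelial keratins, most of them known from skin and oral lining, gave no call at any time. The share of all genes called was 16.5%, 4.06%, and 17.1% at D1, D30, and D180. Values near the threshold were those of Krt78 at D30 (-0.62, adjusted p 0.0527) and D180 (-0.51, adjusted p 0.0569), Krt10 at D180 (-0.42, adjusted p 0.0554), Krt76 at D180 (-0.56, adjusted p 0.0641), Krt13 at D1 (-0.80, adjusted p 0.0692), and Krt79 at D30 (0.52, adjusted p 0.0777). Krt10, with Krt1 a keratin of the skin's upper layers, lay at D180 below all vehicle rats in 4 of 6 DQ-12 rats. Krt1 itself differed by -0.16, -0.39, and -0.45 with no call. Krt13, a keratin of oral and esophageal lining that also marks squamous change in airways, was well above background on 4 vehicle and 0 DQ-12 arrays at D1. The mean of the DQ-12 rats there was at least 1.66-fold below that of the vehicle rats. Its difference at D1 was not called, and 3 of 6 DQ-12 rats lay below all vehicle rats, so a fall of that size is not shown. On no array of either group was Krt13 well above background at D30. Where no exposed array measured it, the bound sets the vehicle mean against the higher, per array, of the dimmest signal well above background and the probe's own signal. Such bounds, here and below, compare group means and leave out sampling error. Krt80 was spread widely at D180, with SDs of 1.21 in vehicle and 0.61 in DQ-12 rats. The median difference of the class was -0.16, 0.03, and -0.45 at the 3 times.

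Krt75, a type II keratin of the companion layer of the hair follicle, was the sole keratin called higher, at D180. At D180, vehicle rats ranged from 5.96 to 6.22 (median 6.18) and DQ-12 rats from 6.36 to 7.38 (median 6.75). All 6 exposed rats were above all vehicle rats, which 3.88% of all genes showed. The difference was 0.72 (SE 0.18, adjusted p 0.00418, higher in 6 of 6 rats), a rise of 64.9%. At D1 and D30 the groups overlapped, with medians of 6.54 in vehicle and 6.36 in DQ-12 rats at D1 and of 5.74 and 5.81 at D30, and differences of -0.08 and 0.16. Within the 2 scan dates at D180 with both groups Krt75 differed by 0.89 (3 arrays of each group) and 0.17 (1 of each). With scan date as a block it differed by 0.71 (adjusted p 0.0173), and with slide as a block by 0.44 (adjusted p 0.566). With slide or scan date as a random block it was called (adjusted p 0.0043 and 0.00309). The other 6 tested keratins of the inner root sheath and companion layer gave no call. At D180, 14.3% of the class was called, beside 17.1% of all genes. The class median was -0.06, 0.05, and -0.11.

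Of 14 hair keratins tested, 1 was called at each time (7.14%), beside 16.5%, 4.06%, and 17.1% of all genes at D1, D30, and D180. The calls came from 2 probes. The brighter Krt33a probe ranged at D30 from 9.28 to 9.84 in vehicle rats (median 9.55) and from 8.95 to 9.34 in DQ-12 rats (median 9.14), with 5 of 6 DQ-12 rats below all vehicle rats. At D180 it ranged from 9.19 to 9.81 in vehicle rats (median 9.53) and from 8.95 to 9.43 in DQ-12 rats (median 9.16), with overlap. At D1 it pointed up, from 9.57 to 9.85 in vehicle rats (median 9.64) and from 9.80 to 10.29 in DQ-12 rats (median 9.87). The differences were 0.30 at D1 (SE 0.11, adjusted p 0.0559), -0.38 at D30 (adjusted p 0.0371), and -0.35 at D180 (adjusted p 0.0198). The dimmer Krt33a probe had the opposite signs, -0.99, 0.15, and 0.41, with no call, and was well above background on 6, 2, 1, 1, 1, and 2 arrays of the groups in the order given for Krt17. With scan date as a block, the brighter probe kept its call at D180 (-0.47, adjusted p 0.01) and lost it at D30 (-0.28, adjusted p 0.305), and with slide as a block it lost both (adjusted p 0.591 and 0.372). With slide or scan date as a random block the D180 call was kept (adjusted p 0.0258 and 0.00969) and the D30 call was not (adjusted p 0.0885 and 0.144). The D30 call was also lost when any of 8 D30 arrays was left out, and the D180 call without vehicle D180 replicate 2 or DQ-12 D180 replicate 5 (adjusted p 0.0667 and 0.0559).

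Krt82, a type II keratin of the hair cuticle, was the called keratin at D1, and is named because it was the sole one, not by the rule for detected genes. It was well above background on 1 vehicle array and on 0 DQ-12 arrays at D1. Vehicle rats ranged from 1.92 to 4.51 (median 3.18) and DQ-12 rats from 1.92 to 2.26 (median 1.95). The vehicle rats were spread over the whole range while the exposed rats stood at the floor of the scale. The fitted difference was -1.32 (SE 0.30, adjusted p 0.00219), but no fold can be given because the bound against the dimmest detected probes is below 1. The D1 vehicle rats shared 1 scan date with the DQ-12 rats in 1 case only, and within that date the difference was 0.084. Of the other hair keratins, Krt81 and Krt86 were detected on all arrays and gave no call, with differences of -0.22, -0.46, and 0.13 and of -0.02, 0.29, and 0.19. The probe tested under the name Krt83 is listed for a transcript that RefSeq names Krt87, and it had 0.24, -0.30, and -0.00 with no call. The median difference of the 14 tested hair keratins was -0.12, 0.04, and 0.05. Krt222, which was put in no class, differed by 1.04 at D180 (adjusted p 0.0538), with 1 of 12 arrays well above background.

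**Figure D4:**
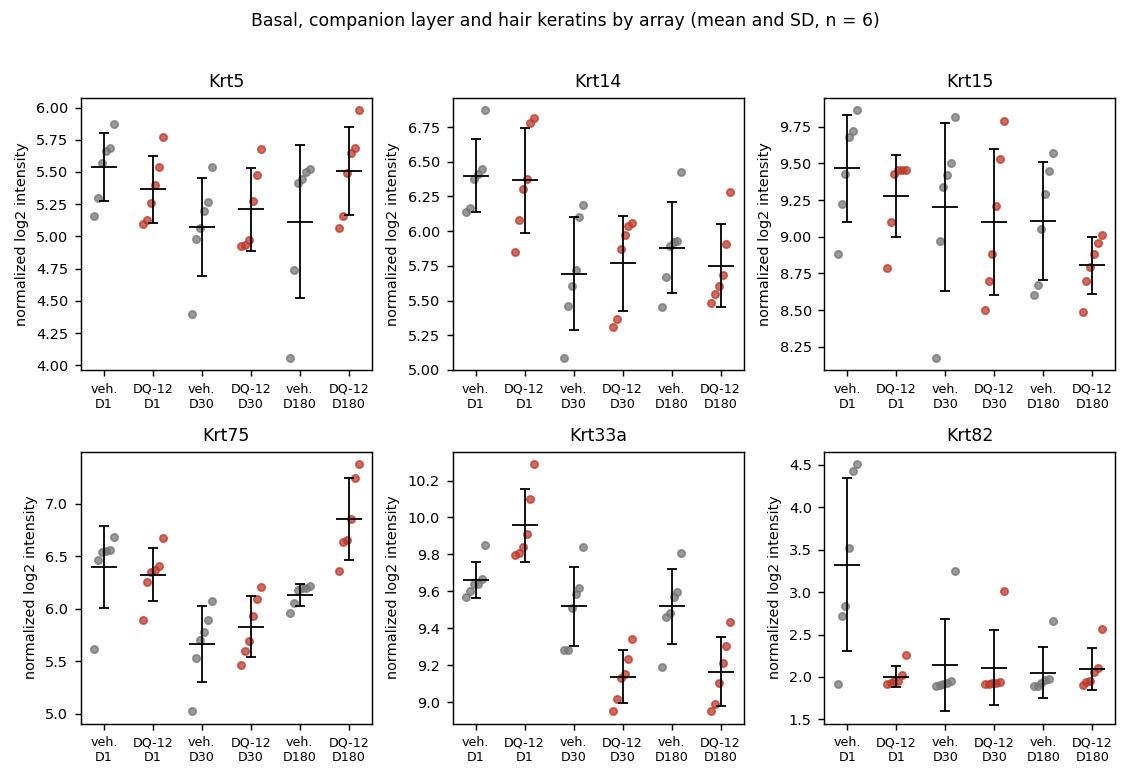
Normalized log2 intensity (vertical axis) of Krt5, Krt14, Krt15, Krt75, Krt33a (brighter probe), and Krt82 on each array, by group, with the mean and SD of 6 rats per group; axes do not start at 0. Krt75 is higher in all 6 DQ-12 rats at D180, the basal keratins overlap at every time, and the medians of Krt82 lie near the floor in all groups but vehicle D1.

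Whether the DQ-12 difference itself changed with time was tested as an interaction in the same model. It was called for 2 of 45 keratins. For Krt8, the difference at D30 minus that at D1 was -1.05 (SE 0.28, adjusted p 0.0369; 2.21% of all genes were called in this contrast). For the brighter Krt33a probe it was -0.68 at D30 minus D1 (SE 0.15, adjusted p 0.0123) and -0.65 at D180 minus D1 (SE 0.15, adjusted p 0.0104; 4.65% of all genes). No keratin was called at D180 minus D30 (0.249% of all genes). The contrasts for Krt7 at D180 minus D1 (-0.42, adjusted p 0.0762) and for Krt19 at D30 minus D1 (-0.59, adjusted p 0.0841) were not called, so a later onset of their fall is not shown. All 3 called contrasts use D1, where scan date and group overlap least. With scan date as a block they were -1.15 for Krt8 (adjusted p 0.129), and -0.67 and -0.86 for Krt33a (adjusted p 0.423 and 0.0793). The Krt8 contrast also missed the threshold in 14 of 36 fits that left out 1 array.

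Partner keratins were compared array by array, as deviations from the group means over 36 arrays, for 6 pairs of a type II with a type I keratin. Krt8 and Krt19 deviated together (Pearson r 0.69, Spearman rho 0.65, permutation p 0.00015 and 0.00016, adjusted 9e-04 and 0.00096). Without the 2 arrays farthest from the median of Krt8, r was 0.61, and within group and scan date it was 0.36 over 28 arrays. Krt8 and Krt18 did not deviate together (r 0.05, rho 0.06, permutation p 0.786 and 0.728), although within group and scan date r was 0.73. Krt7 and Krt19 had r 0.34 and rho 0.27 (permutation p 0.0829 and 0.15), and r 0.09 without the 2 farthest arrays. Krt5 with Krt14 had r 0.26 and rho 0.30 (permutation p 0.159 and 0.0971), and Krt5 with Krt15 had r 0.14 and rho 0.20 (permutation p 0.479 and 0.271). Krt5 with Krt17 had r -0.52 and rho -0.52 (permutation p 0.00632 and 0.00351, adjusted 0.019 and 0.0105), r -0.38 without the 2 farthest arrays, and r -0.25 within group and scan date, but Krt17 was detected on 8 arrays.

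Genes of the structures that keratin filaments attach to were counted against all genes, of which 8.76%, 1.27%, and 9.11% were lower and 7.69%, 2.78%, and 7.94% higher at D1, D30, and D180. The counts of the marker lists described further on are read against the same shares. Of 16 desmosome and plakin genes tested, which anchor filaments at cell contacts, 1, 1, and 3 were lower and 1, 0, and 0 higher at D1, D30, and D180, where 16.5%, 4.06%, and 17.1% of all genes were called in either direction. Periplakin (Ppl), a linker of keratin filaments, was lower at D30 (-0.86, adjusted p 0.000802), plakoglobin (Jup) at D180 (-0.52, adjusted p 0.0133), and Perp at D1 (-0.49, adjusted p 0.012) and D180 (-0.54, adjusted p 0.00503). Of 12 hemidesmosome and basal cell genes, 3, 1, and 4 were lower and 1, 0, and 1 higher. Among them Dst, which ties keratin to hemidesmosomes, was lower at D1 (-0.98) and D180 (-0.41), and Cd151 at D180 (-0.47). The call higher at D1 and that at D180 each reached a fold of at least 2, which none of the calls lower did. The sole call of this list at D30 was Cav1, a caveolar gene of alveolar type 1 and endothelial cells, which was lower at all 3 times (-0.57, -0.40, and -0.80). Of 14 cornified envelope genes, which seal the surface of stratified epithelium, 0, 1, and 0 were lower and 0, 1, and 1 higher. Tgm1, the crosslinking enzyme, was lower at D30 (-0.59, adjusted p 0.0496), and Lce1f was higher at D30 (1.09) and D180 (1.22). Of 18 other intermediate filament genes, 1, 0, and 3 were lower and 2, 0, and 3 higher. Vimentin (Vim), the filament of mesenchymal cells and leukocytes, was higher at D1 (0.42) and D180 (0.93), lamin A/C (Lmna) at D180 (0.71), and synemin (Synm) lower at D1 (-0.41) and D180 (-0.73).

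Transitional alveolar cells, an intermediate between alveolar type 2 and type 1 cells, are known for high Krt8. Of 13 genes listed for them, 4, 1, and 7 were higher and 0, 1, and 0 lower at D1, D30, and D180, beside 7.69%, 2.78%, and 7.94% of all genes higher. At D30 that is 1 gene. Galectin-3 (Lgals3), also a macrophage gene, was higher at all 3 times (0.46, 1.02, and 1.21), and stratifin (Sfn) at D1 (0.98) and D180 (0.67). Fosl1 was at least 1.90-fold higher at D1 and at least 3.49-fold higher at D180, since no vehicle array measured it at either time. The median difference of the list was 0.33, 0.26, and 0.50, and over the same times Krt8 had 0.42, -0.63, and -0.21, with no call.

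Markers of the cells that carry keratins were read in the same fit. All 8 alveolar type 1 markers were detected on every array, and 4, 1, and 6 of them were lower at D1, D30, and D180, with none higher. Rtkn2 was lower at D1 and D180 (-0.57 and -0.75), Pdpn at D1 and D180 (-0.34 and -0.49), and Clic5 at D1, D30, and D180 (-0.36, -0.33, and -0.48). Their summed signal ranged at D180 from 487750 to 635364 in vehicle and from 381313 to 432246 in DQ-12 rats. The ranges overlapped at D1 (425672 to 491690 against 337425 to 445420) and D30 (483104 to 630256 against 437860 to 581554). Such a sum adds the intensities of different probes, so the brightest probes weigh most in it. Of 7 mesothelial markers, 6 were detected on every array, and 3, 3, and 4 were lower, with none higher. Upk1b, a mesothelial membrane protein, was lower at all 3 times (-0.44, -0.65, and -0.74), Upk3b at D30 and D180 (-0.53 and -0.80), and Bnc1 at D1 and D180 (-0.54 and -0.88). The summed signal of the mesothelial list at D30 ranged from 11810 to 14870 in vehicle and from 7910 to 10544 in DQ-12 rats, and at D180 from 9487 to 11026 and from 6930 to 8779. At D1 the ranges of the mesothelial sum overlapped. The part of these markers in the lower Krt7 and Krt19 was not tested.

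The remaining marker lists were read in the same way. Of 8 general epithelial markers, 0 were lower and 1 was higher at each time, Epcam at D1 (0.30) and Elf3 at D30 and D180 (0.83 and 1.15). Of 10 alveolar type 2 markers, 2, 3, and 4 were higher and 1, 0, and 1 lower, with Sftpa1 higher at all 3 times (0.48, 0.49, and 0.47), Lamp3 at D30 and D180 (0.75 and 0.37), and Lpcat1 at D1 (0.96). Of 9 club and goblet cell markers, 2, 0, and 1 were lower and 1, 0, and 2 higher, with Cyp2f4 lower at D1 and D180 (-1.08 and -0.72), Spdef higher at D180 (0.72), and Foxa3 at least 1.25-fold higher at D180. Of 8 ciliated cell markers, 1 was lower at each time, Dnah9 at D1 (-0.65), Tekt1 at D30 (-0.41), and Tppp3 at D180 (-0.62). The summed ciliated signal ranged at D180 from 75850 to 103524 in vehicle and from 51790 to 64055 in DQ-12 rats. That of the club and goblet list ranged at D1 from 199180 to 237084 and from 153310 to 187093. That of the type 2 list at D30 was higher, 956426 to 1006080 in DQ-12 against 824793 to 898367 in vehicle rats. At their other times the ranges of these sums overlapped, and their part in the keratin differences was not tested. Of 9 leukocyte markers, 2, 5, and 7 were higher and 1, 0, and 0 lower, with S100a9 (1.93 and 2.57) and Cd68 (1.16 and 1.55) higher at D30 and D180 and Cd14 higher at all 3 times (0.73, 0.68, and 1.33). The summed leukocyte signal at D180 ranged from 20462 to 28549 in vehicle and from 72018 to 95569 in DQ-12 rats. At D1 the ranges of the leukocyte sum overlapped, and its part in the keratin differences was not tested. None of 5 thymic epithelium markers, listed because that tissue also carries basal keratins, was called, and Psmb11 was the sole one detected on every array. Of 8 skeletal muscle markers, Myh1 was called at D1, at least 5.39-fold higher in DQ-12 rats, and the summed muscle signal reached 8476 on 1 DQ-12 array at D1 and 14457 on 1 vehicle array at D180 while the median of every group lay between 770 and 1186.

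**Figure D5:**
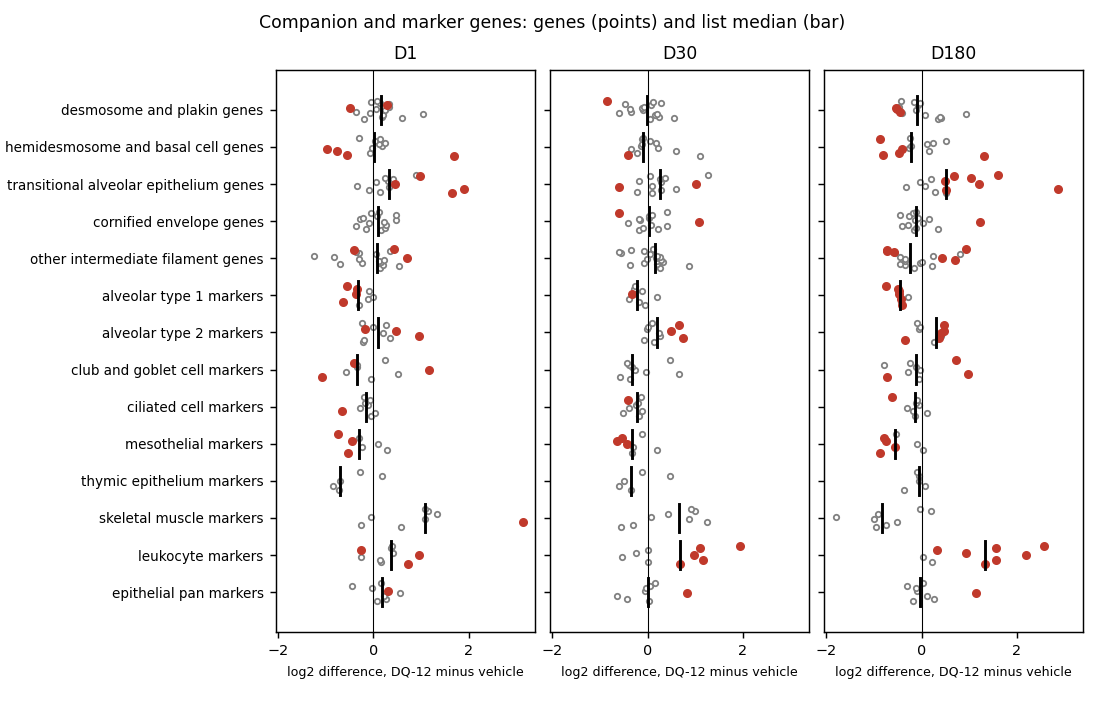
Log2 difference (DQ-12 minus vehicle, horizontal axis) of each gene of the companion and marker lists (points, red where called) at D1, D30, and D180, with the median of each list as a bar. The bars of the alveolar type 1, mesothelial, club and goblet, ciliated, and thymic epithelium lists lie below 0 at all 3 times. That of the leukocyte list reaches 1.33 at D180.

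Across the series, 61.0% to 80.6% of spots per array were well above background. Scan date and group overlapped least at D1, where 1 of 3 dates held both groups, with 6 DQ-12 arrays and 1 vehicle array. At D30 both dates held both groups, and at D180 2 of 6 dates did, with 4 arrays of each group.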

How the data were processed

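Total RNA of the accessory lobe was read on 36 single-color (Cy3) Agilent 8x60K arrays, 6 per group. Per the file headers, Feature Extraction 12.0.1.1 turned each scan into spot intensities, and the background-subtracted processed signal in the deposited scanner files was used here. The authors also deposited log2 values of the same arrays, which served as an alternative. Set against the scanner files, these are processed signals scaled to the 75th percentile of their array, with the median over arrays taken off each probe (median difference 0.00177 over 1641055 values, r = 0.99997), so they are not the quantile-normalized and batch-corrected values that the study's methods describe, and those were not used here.

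Outlier-marked spots were left out, spots of a probe averaged, log2 intensities quantile-normalized, and probes kept (41767) whose signal on 6 or more arrays lay above that array's 95th percentile of negative control spots. Each gene was represented by its brightest probe. One limma model (version 3.58.1, R 4.3.3) over all 6 groups gave each contrast for 23721 genes, with Benjamini-Hochberg adjustment over all of them. The study kept rats in shared cages, and the labels do not give the cage or litter of a rat. The p-values rest on the spread between arrays of a group, each from a different animal. That spread also holds slide and scan date, with correlations within a block of 0.388 and 0.253. The number of arrays limits the precision. Correlations used 100000 permutations.

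Text names Krt7, Krt8, Krt18, Krt19, Krt5, Krt14, Krt15, and Krt17, every called keratin that was well above background on all arrays of at least 1 group, and up to 3 called genes per list, while other keratins were named after their values were seen. The members, classes, and lists were chosen with earlier results of these data known. Replicate numbers did not pair the rats: 6 of 18 same-numbered pairs correlated above 0.1. On simulated data of 23517 genes with known changes, the same model recovered 31.2% of log2 changes of 0.5 and 62.5% of changes of 1 at D30. Few genes were changed there and the simulated arrays were independent, whereas the real arrays share slides and scan dates. These rates are therefore not the recovery for the keratins here, although small keratin differences can be missed. Probe sequences and rn4 positions come from the array files, promoters and gene order from RefSeq (GRCr8). All 49 keratin names were in the RefSeq table. Alternatives covered scaling, background, filters, probe choice, moderation, slide, scan date, and each array left out.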

Additional observations from a re-analysis of the deposited data

Results flagged for a closer look

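Of 50 groups of 6 arrays examined for the keratins named, 3 held an array far from the other 5, and chance gives about 1 in 20. Krt7 was 15.13 in DQ-12 D30 replicate 5, against 14.70 to 14.82 in the other DQ-12 rats at D30. Krt33a (brighter probe) was 9.85 in vehicle D1 replicate 2, against 9.57 to 9.67. Krt75 was 5.62 in vehicle D1 replicate 3, against 6.46 to 6.68. DQ-12 D30 replicate 5 was the sole exposed array on its scan date at D30, and vehicle D1 replicate 3 was the sole vehicle array on the scan date of the exposed D1 arrays; the part of scan date in these values was not tested.

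A change of the DQ-12 difference between times was called for 2 of 45 keratins in the interaction test (limma). For Krt8 the difference at D30 minus that at D1 was -1.05 (adjusted p 0.0369). For the brighter Krt33a probe it was -0.68 at D30 minus D1 (adjusted p 0.0123) and -0.65 at D180 minus D1 (adjusted p 0.0104). Of all genes, 2.21% were called at D30 minus D1 and 4.65% at D180 minus D1. With scan date as a block none of these contrasts was called (adjusted p 0.129, 0.423, and 0.0793). With the median of the Krt33a probes, both of its contrasts reversed sign.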

How the results depend on the processing

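Over the single-keratin results, 1765 recomputed values were counted as unchanged, 56 lost the call, 16 gained it, and 8 reversed. A value without a call in either fit was counted as unchanged whatever its sign. Some of these changed sign, such as Krt7 at D1, which was -0.14 as reported and reached 0.23 in another setting. The 8 reversals were of results called as reported. The calls of Krt7 and Krt19 at D30 and D180 and of Krt75 at D180 were kept when any 1 of the 36 arrays was left out. The number of called keratins at D1 (1 as reported) was 3 with 75th percentile scaling, 2 each with the deposited log2 values, normexp, no filter, each time alone, and without the 3 dimmest arrays, and 0 with scan date as a block, with slide or scan date as a random block, and on scan dates holding both groups. With a fold of at least 2 it was 3 with 75th percentile scaling, 2 with the deposited values, and 0 with normexp, the stricter filter (a full group of 6 arrays well above background), every form of slide or scan date block, and shared scan dates. At D30 (3 as reported) it was 5 with the stricter filter, with trend and robust moderation, with every probe, and without the 3 dimmest arrays, 1 with slide as a block, and 0 with scan date as a block. At D180 (4 as reported) it was 7 with the stricter filter and with slide as a random block, 8 with scan date as a random block, and 1 with slide as a block; with a fold of at least 2 (0 as reported) it was 1 with slide as a fixed or random block, scan date as a random block, and the replicate block. The count that differed between times (2 as reported) was 4 with 75th percentile scaling, the deposited values, normexp, the stricter filter, and without the 3 dimmest arrays, 5 with every probe, 1 with scan date as a block and with either random block, and 0 with slide as a block and on shared scan dates. The cause of these shifts was not tested. The shared-date and dimmest-array settings were chosen after seeing the data.

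Rat numbers share a number only; with the replicate block 6 keratins were called at D30 and 5 differed between times, and 5 of 18 arrays correlated best with their own number. Reversed values were those of Krt33a with the median of its probes (0.030 at D180, 0.23 at D30 minus D1, 0.38 at D180 minus D1) and with its dimmer probe (0.15 at D30, 0.41 at D180), and of Krt82 at D1 with slide (0.12) or scan date (0.084) as a block and on shared scan dates (0.084).

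Leaving out 1 array gave 1 to 4 called keratins at D1 (1 to 2 with a fold of at least 2), 2 to 7 at D30 (0 to 0), 4 to 7 at D180 (0 to 1), and 1 to 4 between times. The D1 count was 4 without vehicle D1 replicate 3 or vehicle D180 replicate 5, and the D30 count was 6 without vehicle D30 replicate 3 or 4. Without DQ-12 D30 replicate 5 it was 7, as was the D180 count. Krt33a at D30 lost its call without vehicle D30 replicate 1, 2, or 6 or DQ-12 D30 replicate 1, 2, 3, 4, or 6 (adjusted p 0.0574 to 0.123). At D180 it lost it without vehicle D180 replicate 2 (0.0667) or DQ-12 D180 replicate 5 (0.0559). The Krt8 change between D1 and D30 lost its call in 14 of 36 such fits, without vehicle D1 replicate 3, 4, or 5, DQ-12 D1 replicate 4, 5, or 6, vehicle D30 replicate 1, 2, 5, or 6, or DQ-12 D30 replicate 1, 2, 3, or 4. Signal near background limits Krt17, Krt20, and most hair keratins.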
